A study of Canis lupus familiaris with 29 samples.

Results

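The genes described here are 10 genes that are used as markers of activated fibroblasts or that encode matricellular proteins, namely FN1, POSTN, TNC, SPARC, THBS2, COMP, FAP, LRRC15, SFRP2 and ACTA2. They were chosen by name from earlier results of the same samples, so their differences between groups are given as values that describe these samples, and the calls among them only as counts beside those over all genes. All 10 were found among the 30951 genes of the count table, of which 18239 had a name, and all 10 passed the filter on low counts in both comparisons.

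RNA was sequenced from 10 normal adrenal medullas (NAMs) of healthy research dogs and from 19 pheochromocytomas and paragangliomas (PPGLs), tumors of chromaffin cells, of client-owned dogs. Of the PPGLs, 7 belonged to PPGL group 1 and 12 to PPGL group 2, and 2 further PPGLs had been left out by the authors. Both groups were drawn by the authors from a principal component analysis of these samples, so p-values between them describe that split. Most dogs of group 1 had a tumor thrombus, and the paper proposes that sampling it may have brought in fewer cortical cells. The site sampled cannot be told apart from the PPGL group. All but 1 of the PPGLs analysed were pheochromocytomas. The labels give no genotype, breed, age or treatment for any group, and NAMs were snap-frozen whereas PPGLs came from several clinics and were snap-frozen or kept in RNAlater. Origin and sampling thus cannot be told apart from tissue.

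Fibroblasts that are activated in wounds, scars and tumors lay down fibronectin and collagen, and many of them make alpha smooth muscle actin, a contractile filament protein. Matricellular proteins are secreted into the matrix, where they act less as building blocks than as modulators of cell adhesion, growth factor activity and collagen assembly. In the adrenal gland, fibroblasts lie in the capsule and around vessels, and smooth muscle cells and pericytes of the vessel wall also make some of these proteins.

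The total count per sample ranged from 19258054 to 35918182 in NAMs, from 18493540 to 31919833 in PPGL group 1 and from 18208718 to 24569667 in PPGL group 2. Levels are given as CPM, counts scaled to a common library size, after TMM normalization, which corrects each library for its composition. At these depths, 3 counts correspond to 0.0835 to 0.165 CPM, a limit that covers counting error only. Levels of different genes are compared as RPKM, the CPM per kilobase of exon. Fold changes are log2 FC from edgeR's quasi-likelihood (QL) test. That test gives no standard error (SE). The SE given here is approximate, the absolute log2 FC divided by the square root of the test's F statistic.

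Some PPGLs stood apart from the others. PPGL_g2_11, replicate 11 of PPGL group 2, had the highest level of SFRP2, FAP, TNC, SPARC, FN1, THBS2 and ACTA2 among all 29 samples. The summed level of 18 fibroblast markers was 31901 CPM in this tumor, whereas the next highest sample, PPGL_g2_4, had 7328 CPM. It also had the highest sum of leukocyte markers, at 943 CPM, and of smooth muscle and pericyte markers, at 5525 CPM, and a total count of 20291595. PPGL_g1_1, replicate 1 of PPGL group 1, had the highest level of COMP of all samples and the lowest level of POSTN, SFRP2, FAP, SPARC, FN1 and ACTA2 in its group. PPGL_g1_7 had the highest sum of mitosis genes, at 2022 CPM. Many of the larger shifts of named log2 FCs without 1 of these tumors are given below.

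The order of the levels differed between groups. In NAMs, SPARC had the highest median level with 296 RPKM, followed by COMP with 90.1, ACTA2 with 30.9 and FN1 with 9.53 RPKM. TNC with 1.32 and THBS2 with 1.08 RPKM had overlapping ranges, and LRRC15, SFRP2, FAP and POSTN were lowest with medians of 0.240, 0.224, 0.171 and 0.0691 RPKM and ranges that overlapped as well. Among tumors of PPGL group 1, the median was 246 RPKM for SPARC, 31.1 for ACTA2, 24.4 for COMP and 14.5 for FN1. The lowest median of that group was the 0.0592 RPKM of LRRC15. By contrast, the median of LRRC15 in PPGL group 2 was 9.17 RPKM, close to the 7.87 RPKM of COMP and the 6.59 RPKM of POSTN, and the ranges of these 3 genes overlapped.

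**Figure D1:**
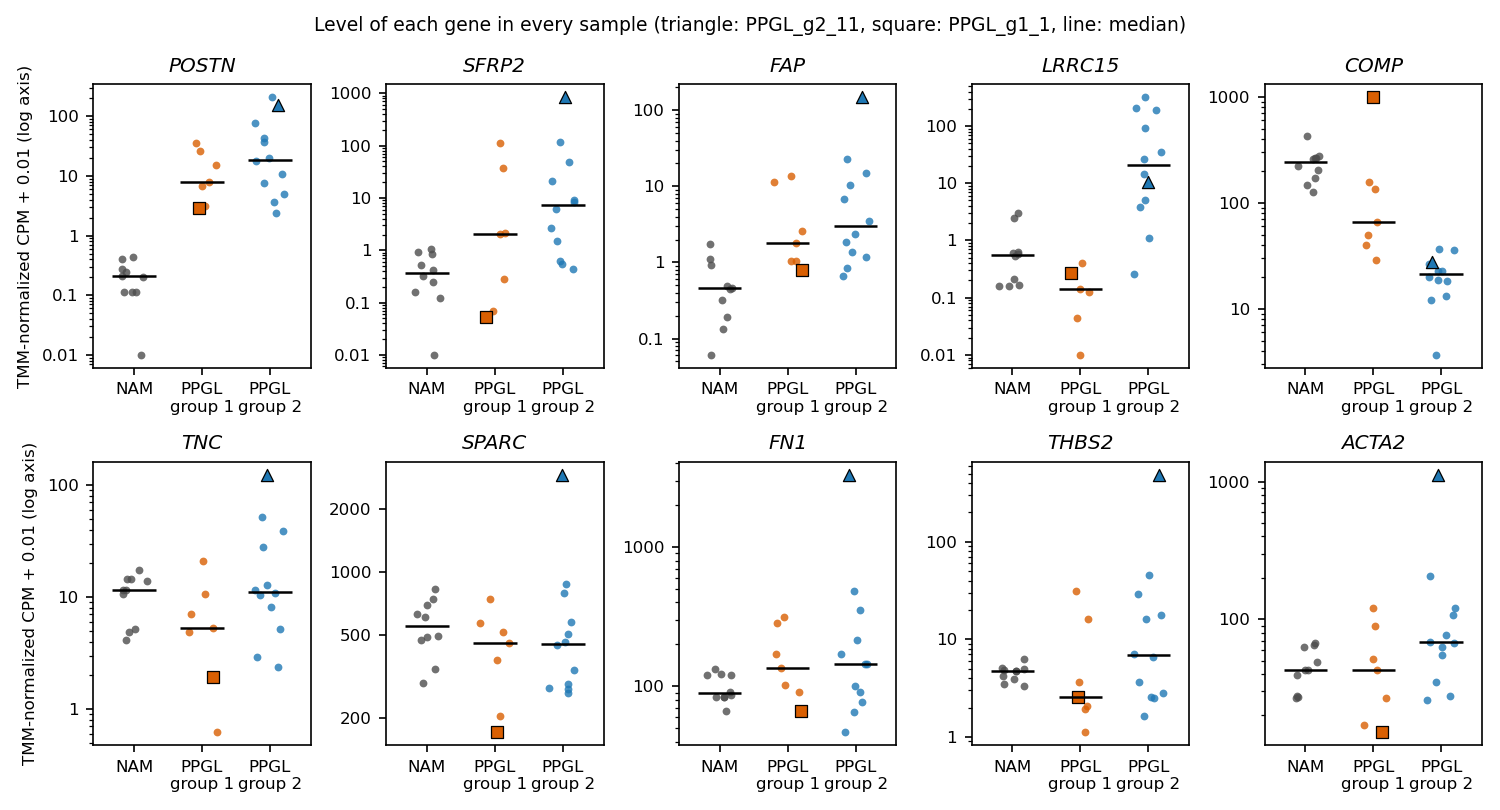
TMM-normalized CPM of each of the 10 genes (log axis, 0.01 added so that samples at 0 can be drawn) in 10 NAMs and in the PPGLs of group 1 (7) and group 2 (12), 1 point per sample, with a line at the group median, PPGL_g2_11 as a triangle and PPGL_g1_1 as a square. POSTN lies above every NAM in all 19 PPGLs, LRRC15 is high in most tumors of group 2 alone, and COMP is below every NAM in all 12 tumors of group 2.

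Of the 10 genes, 7 had an FDR-adjusted p below 0.05 in the QL test of PPGLs against NAMs, all of them higher in PPGLs. Across all 14766 genes tested, 37.5% had an adjusted p below that threshold, 22.3% higher and 15.2% lower in PPGLs. No gene of the 10 passed the threshold as lower by the QL test, 1 had an unadjusted p below 0.05, and 1 was called lower by DESeq2's Wald test and by the Mann-Whitney U-test. The Mann-Whitney U-test, which compares ranks, called 3 of the 10 higher and 19.1% of all genes. Throughout, its p-value comes from ranks, but the direction of its calls is the sign of the QL log2 FC. The QL test called 5 of the 10 higher without PPGL_g2_11, and 6 without PPGL_g2_7 or any NAM but NAM10. Without PPGL_g1_1 it called 1 lower. Between the PPGL groups, 1 of the 10 genes was called higher in group 1 and 1 lower at an adjusted p below 0.1. The background of that comparison was 6.92% of 14666 genes, with 3.97% higher and 2.95% lower in group 1. Nothing is read from these shares, since the genes were chosen with such results known.

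Fibronectin, encoded by FN1 (ENSCAFG00000014345, chromosome 37, 22420428 to 22523123, CanFam3.1), is the adhesive glycoprotein on which much of the other matrix is assembled. Its level in NAMs ran from 66.6 to 134 CPM with a median of 89.1 CPM. The lowest level in PPGL group 1 was 66.2, the median 136 and the highest 313 CPM, and in PPGL group 2 these were 46.8, 145 and 3317 CPM. In 11 of 19 PPGLs FN1 was above every NAM, in 3 it was below every NAM, and the PPGL groups overlapped. PPGL_g2_11 alone held 52.0% of the sum of FN1 over the PPGLs, and the next tumor, PPGL_g2_9, had 487 CPM. PPGLs against NAMs gave a log2 FC of 1.76 (SE 0.59), and 0.78 without PPGL_g2_11. That of group 1 against group 2 was -1.40 (SE 0.79) with all tumors and -0.0514 without PPGL_g2_11.

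Periostin, encoded by POSTN (ENSCAFG00000006073, chromosome 25, 3167359 to 3208411), is a secreted protein that binds collagen and integrins and is scarce in most resting adult tissues. It was near the counting limit in NAMs, where it ran from 0 to 0.419 CPM with a median of 0.197 CPM and where 3 of 10 samples had at most 3 counts. Tumors of PPGL group 1 ran from 2.93 to 36.1 CPM with a median of 7.93 CPM, and those of PPGL group 2 from 2.38 to 207 CPM with a median of 18.7 CPM. All 19 PPGLs were therefore above every NAM, and the highest were PPGL_g2_9 and, with 152 CPM, PPGL_g2_11. The 2 PPGL groups overlapped, with 5 of 12 tumors of group 2 above every tumor of group 1. POSTN had a log2 FC of PPGLs against NAMs of 7.42 (SE 0.94) which ranged from 6.98 to 7.60 when each sample was left out in turn. Group 1 against group 2 gave -1.80 (SE 0.85).

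Thrombospondin 2, encoded by THBS2 (ENSCAFG00000000874, chromosome 1, 56402524 to 56451892), is a matricellular protein that restrains angiogenesis and takes part in collagen fibril assembly. In NAMs it kept to a narrow range of 3.34 to 6.22 CPM with a median of 4.68 CPM. It ran from 1.11 to 31.4 CPM with a median of 2.54 CPM in PPGL group 1. Tumors of PPGL group 2 ran from 1.64 to 489 CPM with a median of 6.83 CPM. The PPGLs thus spread to both sides of the NAMs, with 9 of 19 above and 8 of 19 below every NAM. PPGL_g2_11 held 71.5% of the PPGL sum, and the next tumor, PPGL_g2_4, had 46.0 CPM. For THBS2 the log2 FC of PPGLs against NAMs was 2.99 (SE 0.94) with all samples and 1.26 without PPGL_g2_11. Group 1 against group 2 gave -2.66 (SE 1.21), or -0.57 without that tumor.

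SPARC (ENSCAFG00000017855, chromosome 4, 57659650 to 57681711), also called osteonectin, binds collagen and is made by many stromal and endothelial cells. It was the most abundant of the 10 genes per length in every group. The range was 295 to 823 CPM in NAMs with a median of 550.2 CPM, and 172 to 743 CPM in PPGL group 1 with a median of 457 CPM. Levels in PPGL group 2 were 262 to 2902 CPM with a median of 453 CPM. PPGL_g2_11 and PPGL_g2_9, the latter with 877 CPM, were above every NAM, and 6 PPGLs were below every NAM. The log2 FC of PPGLs against NAMs was 0.06 (SE 0.33) with all samples and -0.30 without PPGL_g2_11, and it was also below 0 without NAM3 (-0.0174) or NAM4 (-0.00359). Group 1 against group 2 gave -0.62 (SE 0.47), or -0.09 without that tumor.

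Tenascin C, encoded by TNC (ENSCAFG00000003426, chromosome 11, 69077535 to 69170281), is a large glycoprotein of embryonic and healing tissues that loosens cell adhesion. NAMs ran from 4.16 to 17.3 CPM with a median of 11.6 CPM. Tumors of PPGL group 1 ran from 0.612 to 21.2 CPM with a median of 5.31 CPM, and those of PPGL group 2 from 2.38 to 124 CPM with a median of 11.2 CPM. All 3 groups overlapped, with 5 of 19 PPGLs above and 4 of 19 below every NAM. The log2 FC of PPGLs against NAMs was 0.80 (SE 0.58), or 0.27 without PPGL_g2_11, and that of group 1 against group 2 was -1.81 (SE 0.78), or -1.19 without that tumor. PPGL_g2_11 was highest, followed by PPGL_g2_9 with 52.4 CPM.

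Cartilage oligomeric matrix protein, encoded by COMP (ENSCAFG00000014616, chromosome 20, 44306859 to 44314625), is the thrombospondin of cartilage, tendon and some fibroblasts, where it binds collagen fibrils. Unlike POSTN, it was abundant in every NAM, from 126 to 427 CPM with a median of 243 CPM. The lowest level in PPGL group 1 was 28.9, the median 65.8 and the highest 989 CPM. For PPGL group 2 these were 3.66, 21.2 and 36.5 CPM. All 12 tumors of group 2 and 4 of 7 tumors of group 1 were below every NAM, and PPGL_g1_1 was above every NAM. In group 1, 6 of 7 tumors were above every tumor of group 2, and only PPGL_g1_7 was within the range of group 2. COMP had a log2 FC of PPGLs against NAMs of -1.39 (SE 0.61) with all samples and -2.54 without PPGL_g1_1, a tumor that held 57.4% of the PPGL sum. Group 1 against group 2 gave 3.32 (SE 0.58) with all tumors and 1.89 without PPGL_g1_1.

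Of 6 markers of cartilage and bone cells found by name, CNMD and SP7 had at most 3 counts in every NAM, and the summed level of all 6 had a median of 2.86 CPM in NAMs, 5.91 CPM in PPGL group 1 and 3.65 CPM in PPGL group 2. COL9A1, their most abundant gene over all samples, had a median of 1.30 CPM in NAMs. In the QL test, none of the 3 markers tested was called in either direction in either comparison, none had an unadjusted p below 0.05, and DESeq2 and the Mann-Whitney U-test called 0.

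Fibroblast activation protein, encoded by FAP (ENSCAFG00000010387, chromosome 36, 7575161 to 7647226), is a serine protease on the surface of activated fibroblasts. Its level was 0.0509 to 1.72 CPM in NAMs with a median of 0.447 CPM, and 2 of 10 NAMs had at most 3 counts. Tumors of PPGL group 1 had 0.788 to 13.7 CPM with a median of 1.81 CPM, and those of PPGL group 2 had 0.650 to 148 CPM with a median of 2.96 CPM. In 12 of 19 PPGLs the level was above every NAM, 4 of them in group 1 and 8 in group 2. FAP had a log2 FC of PPGLs against NAMs of 4.48 (SE 0.99) with all samples and 3.24 without PPGL_g2_11, which held 59.8% of the PPGL sum. Between the PPGL groups the log2 FC was -1.98 (SE 1.08), or -0.41 without that tumor.

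Secreted frizzled-related protein 2, encoded by SFRP2 (ENSCAFG00000008353, chromosome 15, 51540500 to 51548765), is a soluble modulator of Wnt signaling that fibroblasts secrete. In NAMs it ran from 0 to 1.07 CPM with a median of 0.362 CPM. Its level in PPGL group 1 ran from 0.0438 to 114 CPM with a median of 2.00 CPM, and in PPGL group 2 from 0.427 to 837 CPM with a median of 7.25 CPM. The spread among the tumors was the widest of the 10 genes after LRRC15, with an SD of log2 CPM of 3.52 over 19 PPGLs, against 4.01 for LRRC15. In 13 of 19 PPGLs SFRP2 was above every NAM, whereas PPGL_g1_1 and PPGL_g1_6 had at most 3 counts. PPGL_g2_11 held 69.2% of the PPGL sum, and PPGL_g2_4 followed with 117 CPM. SFRP2 had a log2 FC of PPGLs against NAMs of 7.09 (SE 1.56) with all samples and 5.48 without PPGL_g2_11. That between the groups was -2.02 (SE 1.60) and turned to 0.16 without this tumor and to -3.69 without PPGL_g1_3.

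LRRC15 (ENSCAFG00000013466, chromosome 33, 31332496 to 31342583) encodes a membrane protein with leucine-rich repeats that marks fibroblasts stimulated by TGF-beta in several carcinomas. In NAMs it ran from 0.149 to 2.99 CPM with a median of 0.540 CPM, and NAM4 and NAM10 were higher than the other NAMs. All of PPGL group 1 lay between 0 and 0.388 CPM with a median of 0.133 CPM, and 4 of 7 tumors had at most 3 counts. PPGL group 2 ran from 0.253 to 316 CPM with a median of 20.6 CPM. In group 2, 11 of 12 tumors were above every tumor of group 1, 10 of 12 were above every NAM, and PPGL_g2_1 was within the range of group 1. The highest levels were those of PPGL_g2_6, of PPGL_g2_12 with 209, of PPGL_g2_4 with 194 and of PPGL_g2_8 with 92.4 CPM, while PPGL_g2_11 had 10.4 CPM. The log2 FC of group 1 against group 2 was -8.67 (SE 1.49), and -8.78 without PPGL_g2_11. As the counts of group 1 were at or near the counting limit, the size of this fitted value depends on the prior count. For PPGLs against NAMs the log2 FC was 5.80 (SE 1.48), a fit over 1 group mostly above the NAMs and 1 group with 4 of 7 tumors below every NAM.

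ACTA2 (ENSCAFG00000015708, chromosome 26, 38700480 to 38711753) encodes alpha smooth muscle actin, which smooth muscle cells and pericytes make as well as contractile fibroblasts. NAMs ran from 26.9 to 67.0 CPM with a median of 42.6 CPM. PPGL group 1 ran from 15.1 to 120.2 CPM with a median of 42.9 CPM, and PPGL group 2 from 25.8 to 1127 CPM with a median of 67.8 CPM. The 3 groups overlapped, with 8 of 19 PPGLs above and 4 of 19 below every NAM. ACTA2 had a log2 FC of PPGLs against NAMs of 1.45 (SE 0.57) with all samples and 0.59 without PPGL_g2_11, which held 48.1% of the PPGL sum, and that of group 1 against group 2 was -1.68 (SE 0.74), or -0.58 without this tumor.

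**Figure D2:**
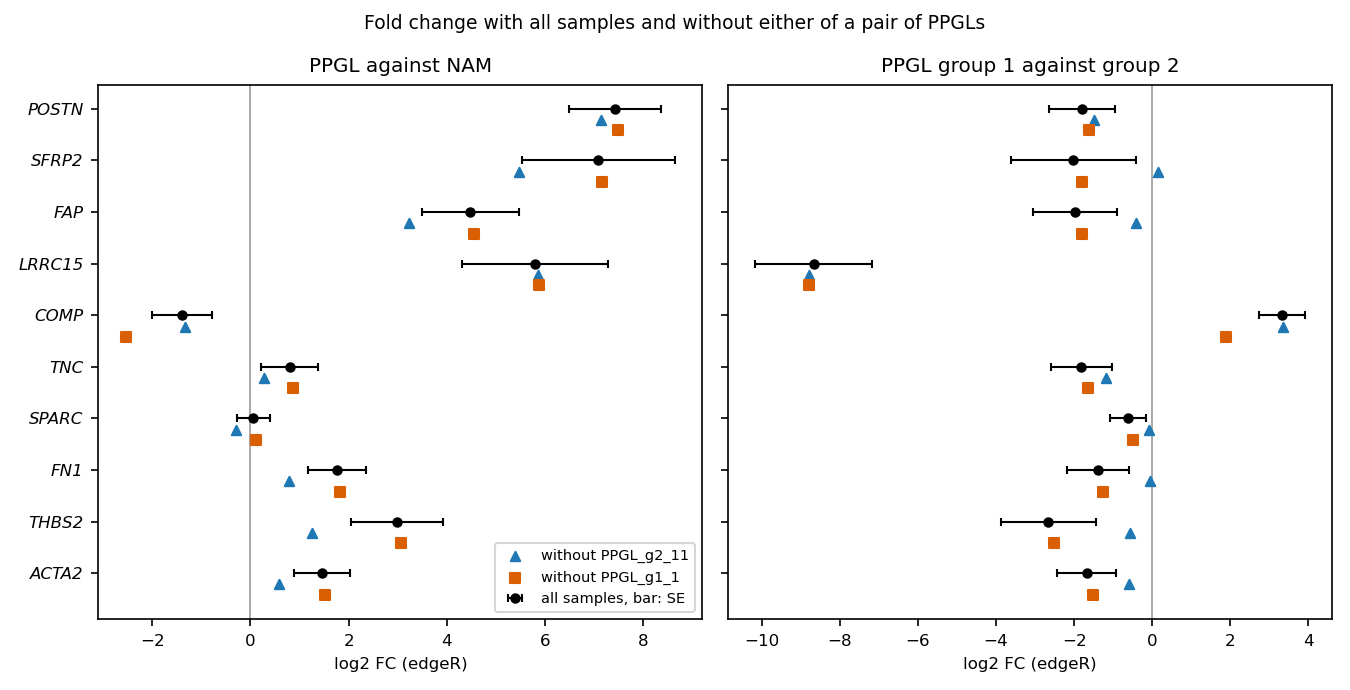
Log2 FC of the 10 genes from edgeR for PPGLs against NAMs (left) and PPGL group 1 against group 2 (right), with bars of 1 SE for the fit to all samples, and the value without PPGL_g2_11 (triangle) or without PPGL_g1_1 (square). Leaving out PPGL_g2_11 moves THBS2 from 2.99 to 1.26 on the left, and LRRC15 from -8.67 to -8.78 on the right.

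By the QL test, other fibroblast genes rose in PPGLs in part, set against 22.3% higher and 15.2% lower among all genes tested. Of 19 activated fibroblast genes outside the 10, the QL test called 8 higher and 0 lower in PPGLs, with a median log2 FC of 0.76 against 0.13 for all genes tested. No gene of that list had an unadjusted p below 0.05 as lower, and DESeq2 and the Mann-Whitney U-test each called 1 lower. The largest changes were those of COL11A1 (log2 FC 3.82, SE 0.99), a fibrillar collagen chain, CTHRC1 (3.03, SE 0.82), a secreted protein of repairing tissue, and GREM1 (2.90, SE 0.86), a BMP antagonist. GREM1 had at most 3 counts in 4 of 10 NAMs. Without PPGL_g2_11 the log2 FC was 2.03 for COL11A1 and 1.76 for GREM1. Their levels lay above every NAM in 11 of 19 PPGLs for COL11A1, 9 for CTHRC1 and 10 for GREM1. The summed level of the list had a median of 427 CPM in NAMs, 460.2 CPM in group 1 and 483 CPM in group 2, and BGN was its most abundant gene. Of 17 general fibroblast markers tested, 10 rose and 0 fell, with a median log2 FC of 1.97. For that list the number with an unadjusted p below 0.05 as lower was 0, DESeq2 called 1 and the Mann-Whitney U-test 2. COL1A1 (3.72, SE 0.85), COL3A1 (3.09, SE 0.75) and LUM (2.43, SE 0.85) rose most, the first and the second being the main fibrillar collagens of soft tissue and LUM a collagen-binding proteoglycan. Without PPGL_g2_11 the log2 FC was 2.74 for COL1A1 and 2.14 for COL3A1, and LUM lost its call, with 0.95.

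These list counts depended on the test and on 1 tumor. The rank-based Mann-Whitney U-test called 3 of the 19 activated fibroblast genes and 4 of the 17 fibroblast markers higher, counts near its share over all genes. Among all genes it called 19.1% higher and 19.8% lower, and DESeq2 23.8% and 17.2%. These shares are the background of both tests in each list for PPGLs against NAMs. The QL test without PPGL_g2_11 called 7 of each of the 2 fibroblast lists higher and 1 of each lower. The summed level of the fibroblast markers had a median of 1105 CPM in NAMs, 2749 CPM in PPGL group 1 and 3793 CPM in PPGL group 2. THY1, their most abundant gene, which neurons also make, had medians of 398, 464 and 1912 CPM. In group 1 THY1 reached 6544 CPM, and the highest sum was 7155 CPM, in PPGL_g1_6. The mean log2 CPM of the 17 markers tested was 4.28 in that tumor, against 4.48 to 5.21 in NAMs. Across group 1 this mean ran from 3.63 (PPGL_g1_5) to 6.05 (PPGL_g1_3). The sums thus rest in part on THY1. In a bulk sample, more fibroblasts, more RNA of these genes per fibroblast and, for THY1, RNA of other cells cannot be told apart.

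Of 18 genes that process and crosslink collagen, 8 rose, 0 fell and 10 were not called in PPGLs, with a median log2 FC of 0.77, beside 22.3% higher and 15.2% lower among all genes tested. The Mann-Whitney U-test called 6 higher. The number with an unadjusted p below 0.05 as lower was 0, and DESeq2 and the Mann-Whitney U-test each called 1 lower. ADAMTS2, the protease that trims the amino end of procollagens, had a log2 FC of 2.92 (SE 0.36), with all 19 PPGLs above every NAM. LOXL2, a lysyl oxidase that crosslinks collagen, had 2.29 (SE 0.42), and 17 of 19 PPGLs were above every NAM. P4HA2, a subunit of prolyl 4-hydroxylase, had 1.16 (SE 0.30). Without PPGL_g2_11, 7 genes were called higher and 2 lower, and 1 was called lower without PPGL_g2_12. In the fit without PPGL_g2_11, ADAMTS2 had a log2 FC of 2.81 and LOXL2 of 1.97, both still with an FDR-adjusted p below 0.05 in edgeR's test.

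Among 19 other matricellular genes, 6 rose and 2 fell in PPGLs, with a median log2 FC of 0.61, beside 22.3% higher and 15.2% lower among all genes tested, and the Mann-Whitney U-test called 2 higher and 3 lower. CCN5 (4.86, SE 1.14), CCN3 (4.36, SE 0.89) and CCN1 (1.80, SE 0.66), members of the CCN family of secreted growth factor modulators, rose most. CCN5 had at most 3 counts in 4 of 10 NAMs, which limits the precision of its fold change, and 3.19 without PPGL_g2_11, and CCN1 lost its call without NAM1 (1.74), NAM3 (1.73), NAM4 (1.71), NAM6 (1.73) or PPGL_g2_11 (1.15). For CCN3, 16 of 19 PPGLs lay above every NAM, and it was lower in group 1 than in group 2 (log2 FC -3.91, edgeR FDR-adjusted p = 0.0244). SMOC2 (-2.80, SE 0.52), a relative of SPARC, fell and was below every NAM in 14 of 19 PPGLs. It was also lower in group 1 than in group 2 (log2 FC -2.20, edgeR FDR-adjusted p = 0.0668), a call lost without PPGL_g1_4 (-2.11), PPGL_g1_5 (-2.03), PPGL_g1_6 (-2.13) or PPGL_g1_7 (-2.08), and -2.88 without PPGL_g1_1. TNN (-1.60, SE 0.56), a tenascin, fell in PPGLs, but was not called without NAM4 (-1.42). The number called higher was 3 without NAM3 and 4 without PPGL_g2_11, and the number called lower was 1 without NAM4.

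Of 18 matrix receptors tested, 5 rose and 3 fell in PPGLs, with a median log2 FC of 0.33, and the Mann-Whitney U-test called 3 and 4. Among all genes tested, 22.3% were higher and 15.2% lower, so the counts of this list were near those of the background. ITGB3 (1.71, SE 0.55), the partner of the alpha V integrin chain in the receptor of periostin and fibronectin, ITGA2 (1.59, SE 0.44), a chain of a collagen receptor, and DDR1 (1.42, SE 0.24), a collagen-activated kinase, rose most. SDC1 (-1.52, SE 0.59), ITGB8 (-1.15, SE 0.44) and ITGB5 (-0.87, SE 0.33) fell. Of these 3 calls 0 were left without NAM6, PPGL_g1_5 or PPGL_g2_6, and 1 without NAM7, NAM9, PPGL_g1_1, PPGL_g1_4, PPGL_g2_4, PPGL_g2_7, PPGL_g2_8 or PPGL_g2_12. SDC1 was not called without NAM6 (-1.36), NAM7 (-1.13), NAM9 (-1.54), PPGL_g1_1 (-1.48), PPGL_g1_2 (-1.45), PPGL_g1_3 (-1.49), PPGL_g1_5 (-1.45), PPGL_g2_3 (-1.46), PPGL_g2_4 (-1.51), PPGL_g2_5 (-1.46), PPGL_g2_6 (-1.46), PPGL_g2_7 (-1.46), PPGL_g2_8 (-1.47), PPGL_g2_9 (-1.51) or PPGL_g2_12 (-1.46). ITGB8 was not called without NAM3 (-1.10), NAM4 (-1.13), NAM5 (-0.94), NAM6 (-1.15), PPGL_g1_4 (-1.10), PPGL_g1_5 (-1.11), PPGL_g2_6 (-1.09) or PPGL_g2_7 (-1.13). ITGB5 was not called without NAM1 (-0.84), NAM2 (-0.82), NAM6 (-0.82), NAM7 (-0.82), NAM8 (-0.83), NAM9 (-0.85), PPGL_g1_1 (-0.82), PPGL_g1_4 (-0.83), PPGL_g1_5 (-0.85), PPGL_g1_6 (-0.83), PPGL_g2_4 (-0.86), PPGL_g2_6 (-0.85), PPGL_g2_8 (-0.85) or PPGL_g2_12 (-0.85). ITGB3 had a log2 FC of 1.12 without PPGL_g2_11. ITGAV itself had a log2 FC of 0.18 (SE 0.21) and was not called. ITGA8 (log2 FC -2.15) and ITGA9 (-1.12) were the 2 receptors called between the PPGL groups, both lower in group 1. The call of ITGA9 was lost without PPGL_g1_1 (-1.11), PPGL_g1_2 (-1.03), PPGL_g1_3 (-1.10), PPGL_g1_4 (-0.999), PPGL_g1_7 (-1.03), PPGL_g2_3 (-1.09), PPGL_g2_4 (-1.11), PPGL_g2_5 (-1.09), PPGL_g2_9 (-1.05), PPGL_g2_10 (-1.14) or PPGL_g2_11 (-0.94).

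The TGF-beta pathway induces many of the 10 genes in fibroblasts. Of 18 of its genes tested, 4 rose and 3 fell in PPGLs, near the 22.3% and 15.2% of all genes. TGFB1 (0.72, SE 0.19), TGFB2 (2.53, SE 0.54) and TGFB3 (1.65, SE 0.56) rose in PPGLs, as did the latent TGF-beta binding protein LTBP2 (2.62, SE 0.71; 1.66 without PPGL_g2_11). TGFBR3 (-2.67, SE 0.35), TGFBR2 (-1.60, SE 0.31) and ENG (-0.61, SE 0.22), all receptor chains, fell, and ENG was not called without NAM4 (-0.56), NAM7 (-0.56), NAM9 (-0.55) or NAM10 (-0.59). The median log2 FC of the list was -0.12, and the Mann-Whitney U-test called 3 higher and 5 lower, as the QL test called 5 lower without PPGL_g2_11. Between the groups, LTBP1 (log2 FC -2.34; -1.23 without PPGL_g2_11) and TGFB2 (-2.02) were among the 4 genes called lower in group 1. Of these 4 calls 0 were left without PPGL_g1_2 or PPGL_g1_7, 1 without PPGL_g1_4, PPGL_g1_6 or PPGL_g2_4, and 2 without PPGL_g1_3. LTBP1 lost its call without PPGL_g1_2 (-2.27), PPGL_g1_6 (-2.26) or PPGL_g1_7 (-2.46), and TGFB2 without PPGL_g1_2 (-1.86), PPGL_g1_3 (-1.85), PPGL_g1_4 (-1.86), PPGL_g1_5 (-1.93), PPGL_g1_7 (-2.04), PPGL_g2_4 (-1.92) or PPGL_g2_12 (-1.78). The median level of TGFB2 was 4.65 CPM in NAMs, 5.31 CPM in group 1 and 32.6 CPM in group 2.

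Between the PPGL groups, the other fibroblast lists gave few calls in edgeR's QL test, which called 3.97% of all genes higher and 2.95% lower in group 1. Of 18 activated fibroblast genes tested, VCAN, a large proteoglycan, was the 1 called (log2 FC -3.34, edgeR FDR-adjusted p = 0.0589), and its median was 4.79 CPM in group 1 and 48.7 CPM in group 2. Without PPGL_g2_11 the log2 FC of VCAN was -2.26. In that list 8 were lower and 0 higher at an unadjusted p below 0.05, DESeq2 called 3 lower and 0 higher, and the Mann-Whitney U-test 0. Among all genes DESeq2 called 6.25% higher and 5.98% lower in group 1, and the Mann-Whitney U-test 1.09% and 1.54%. The share of all genes at an unadjusted p below 0.05 is not given for either comparison, so nothing is read from counts at that threshold. Of 18 fibroblast markers and 18 collagen processing genes, 0 were called. At an unadjusted p below 0.05, 7 and 5 of these were lower in group 1 and 0 were higher. DESeq2 called 2 and 3 lower, beside 5.98% of all genes, and the Mann-Whitney U-test 0 and 1, beside 1.54%. By the QL test 1 fibroblast marker was called lower without PPGL_g2_3, and 1 collagen processing gene without PPGL_g1_3, PPGL_g2_1, PPGL_g2_3, PPGL_g2_6, PPGL_g2_8 or PPGL_g2_12. The median log2 FC of group 1 against group 2 was -1.51 for the activated fibroblast genes, -1.33 for the fibroblast markers and -0.48 for the collagen processing genes, against 0.04 for all genes tested. Among the other matricellular genes 2 of 19 fell, with a median of -0.53, among the receptors 2 of 18, with a median of -0.48, and in the TGF-beta pathway 4 of 18, with a median of -0.39. None of these lists had a call higher in group 1 by the QL test, and at an unadjusted p below 0.05 there were 2 matricellular genes, 1 receptor and 0 TGF-beta genes higher, with 1, 0 and 0 called by DESeq2 and 0 by the Mann-Whitney U-test. Leaving out 1 tumor made 1 matricellular gene higher (PPGL_g1_1, PPGL_g1_2, PPGL_g1_6, PPGL_g1_7, PPGL_g2_9 or PPGL_g2_11) and 1 receptor higher (PPGL_g1_1, PPGL_g1_3, PPGL_g1_4, PPGL_g1_6 or PPGL_g2_11). The lower calls fell to 1 for the matricellular genes without PPGL_g1_4, PPGL_g1_5 or PPGL_g1_6. For the receptors they fell to 1 without PPGL_g1_1, PPGL_g1_2, PPGL_g1_3, PPGL_g1_4, PPGL_g1_7, PPGL_g2_3, PPGL_g2_4, PPGL_g2_5, PPGL_g2_9, PPGL_g2_10 or PPGL_g2_11.

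Smooth muscle and pericyte markers, which share ACTA2 with contractile fibroblasts, gave 4 genes higher and 1 lower of 14 tested in PPGLs, with a median log2 FC of 0.39, beside 22.3% higher and 15.2% lower among all genes tested. The Mann-Whitney U-test called 2 higher and 2 lower. By the QL test, 2 were higher and 3 lower without PPGL_g2_11, and 2 were called higher without NAM2. ABCC9 (2.18, SE 0.62), CNN1 (1.89, SE 0.68) and NOTCH3 (1.64, SE 0.41) rose most and MYL9 (-1.64, SE 0.41) fell. CNN1 was not called higher without NAM2 (1.74) or PPGL_g2_11 (1.04). Between the groups 4 of 14 were lower in group 1 and 0 higher, beside 2.95% and 3.97% of all genes, and no gene was higher at an unadjusted p below 0.05 or by DESeq2 or the Mann-Whitney U-test. CNN1 (log2 FC -2.95), DES (-2.81) and TPM2 (-2.24), genes of the contractile apparatus, differed most, and 2 calls were left without PPGL_g1_2, PPGL_g1_4 or PPGL_g1_6. TPM2 lost its call without PPGL_g1_2 (-2.15), PPGL_g1_4 (-2.16) or PPGL_g1_6 (-2.11). Without PPGL_g2_11 the log2 FC between the groups was -1.47 for TPM2 and -2.03 for CNN1. The summed level of the smooth muscle and pericyte markers had a median of 1238 CPM in NAMs, 1818 CPM in group 1 and 1782 CPM in group 2. RGS5, a pericyte gene, was the most abundant, with medians of 536, 1386 and 1256 CPM, so these sums rest in large part on RGS5.

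Markers of the adrenal cortex moved with both the tissue and the group. Of 10 tested, 9 were lower in PPGLs and 9 were lower in group 1 than in group 2, with a median log2 FC of -3.19 and -6.54, and 0 were higher by edgeR's QL test, at an unadjusted p below 0.05, by DESeq2 or by the Mann-Whitney U-test. MRAP (-3.63), CYP11A1 (-3.43) and NR5A1 (-3.28) fell most in PPGLs, and CYP11A1 (-6.96), MC2R (-6.92) and CYP21A2 (-6.80) differed most between the groups. Their sum had a median of 37345 CPM in NAMs, 275 CPM in group 1 and 3685 CPM in group 2. CYP17A1 was the most abundant over all samples, but had a median of only 1.88 CPM in group 1. MC2R and MRAP, the receptor for corticotropin and its accessory protein, had a median of 0 CPM in group 1. PPGL_g2_11 had a sum of 662 CPM. Chromaffin markers were present in every group, with median sums of 32184, 34009 and 49180 CPM, and CHGB was the most abundant. The samples labelled normal medulla thus held the markers of chromaffin cells and also high levels of cortical markers. The part of cortical tissue in the differences of COMP, LRRC15 and the other genes between groups was not tested.

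Within a group, levels were set against the mean log2 CPM of the cortical, fibroblast, and smooth muscle and pericyte markers tested between PPGLs and NAMs (10, 17 and 14 genes), which gave 90 relations, with two-sided permutation tests (exact for 7 samples) and Benjamini-Hochberg adjustment over all 90, for rho and for r apart. A relation is called here by its rho. Levels of 6 of the 10 genes were higher where the fibroblast markers were higher in PPGL group 2, at an adjusted permutation p of rho below 0.05. Of 14648 genes tested outside these markers, 1.53% had a rho at least as high as the lowest of the 6, and nothing is read from the count, since the 10 genes were chosen with results of these samples known. Among the 6 were SPARC (Pearson's r = 0.953, permutation p = 3e-05; Spearman's rho = 0.874, permutation p = 0.00039, adjusted p = 0.00846) and THBS2 (r = 0.968, permutation p = 3e-05; rho = 0.846, permutation p = 0.00089, adjusted p = 0.0114). FN1 had r = 0.936 (permutation p = 4e-05) and rho = 0.874 (permutation p = 0.00033, adjusted p = 0.00846). POSTN had r = 0.864 (permutation p = 4e-05) and rho = 0.867 (permutation p = 0.00042, adjusted p = 0.00846). SFRP2 had r = 0.885 (permutation p = 0.0002) and rho = 0.818 (permutation p = 0.00179, adjusted p = 0.0201), and FAP r = 0.956 (permutation p = 4e-05) and rho = 0.797 (permutation p = 0.00311, adjusted p = 0.0311). Without the 2 tumors farthest from the median of the score, PPGL_g2_11 and PPGL_g2_9, every rho was lower, with 0.782 for SPARC, 0.745 for THBS2, 0.782 for FN1, 0.782 for POSTN, 0.758 for SFRP2 and 0.661 for FAP (r = 0.842, 0.924, 0.772, 0.838, 0.899 and 0.902). With the smooth muscle and pericyte markers, 3 of the 10 passed, beside 1.26% of 14652 genes with a rho as high as the lowest of these. ACTA2 had r = 0.971 (permutation p = 3e-05) and rho = 0.916 (permutation p = 7e-05, adjusted p = 0.0063), and rho = 0.855 (r = 0.889) without the 2 farthest tumors for that score, PPGL_g2_11 and PPGL_g2_3. SFRP2 had r = 0.876 (permutation p = 0.00016) and rho = 0.867 (permutation p = 0.00047, adjusted p = 0.00846), and rho = 0.770 (r = 0.735) without them. THBS2 had r = 0.916 (permutation p = 0.00016) and rho = 0.853 (permutation p = 0.00066, adjusted p = 0.0099), and rho = 0.770 (r = 0.775) without them. Others passed with this score by r alone: FAP (r = 0.8296, permutation p = 0.00174, adjusted p = 0.0131; rho = 0.678, permutation p = 0.0191, adjusted p = 0.143), SPARC (r = 0.886, permutation p = 0.00093, adjusted p = 0.00837; rho = 0.629, permutation p = 0.0319, adjusted p = 0.172) and FN1 (r = 0.879, permutation p = 0.00127, adjusted p = 0.0104; rho = 0.706, permutation p = 0.01296, adjusted p = 0.106). Without the 2 farthest tumors their r was 0.646, 0.632 and 0.678 and their rho 0.648, 0.491 and 0.673.

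By rho, the relation of LRRC15, COMP, TNC and ACTA2 with the fibroblast markers did not pass the adjusted threshold. Within PPGL group 2 LRRC15 had r = 0.235 (permutation p = 0.467) and rho = 0.350 (permutation p = 0.267, adjusted p = 0.532), and COMP had r = -0.0614 (permutation p = 0.839) and rho = -0.273 (permutation p = 0.391, adjusted p = 0.607). Without the 2 farthest tumors, rho was 0.564 for LRRC15 and -0.418 for COMP (r = 0.573 and -0.267). TNC had r = 0.5003 (permutation p = 0.0975) and rho = 0.336 (permutation p = 0.286, adjusted p = 0.532), and it turned to rho = -0.152 (r = -0.292) without the 2 farthest tumors, PPGL_g2_11 and PPGL_g2_9. ACTA2 had r = 0.844 (permutation p = 0.00191) and rho = 0.748 (permutation p = 0.00722, adjusted p = 0.065), and a lower rho (r = 0.555) without them, and passed by r alone (adjusted permutation p = 0.0132). With the cortical markers, none of the 10 genes gave an adjusted permutation p below 0.05 in any group by rho or by r, and the median rho was 0.273 in NAMs, -0.268 in group 1 and -0.350 in group 2. For COMP with the cortical markers in NAMs, r was -0.296 (permutation p = 0.409) and rho -0.321 (permutation p = 0.371, adjusted p = 0.586), and rho was -0.0952 (r = -0.127) without the 2 farthest samples. In NAMs no relation with any of the 3 scores passed the adjusted threshold by rho or by r. In group 1 none passed by rho, while by r FAP (r = 0.932, exact permutation p = 0.00437, adjusted p = 0.0281; rho = 0.821, exact permutation p = 0.0341, adjusted p = 0.172) and THBS2 (r = 0.880, exact permutation p = 0.00714, adjusted p = 0.0429; rho = 0.786, exact permutation p = 0.0480, adjusted p = 0.216) passed with the fibroblast markers. Without the 2 farthest tumors their r was 0.760 and 0.574, and their rho was lower as well.

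**Figure D3:**
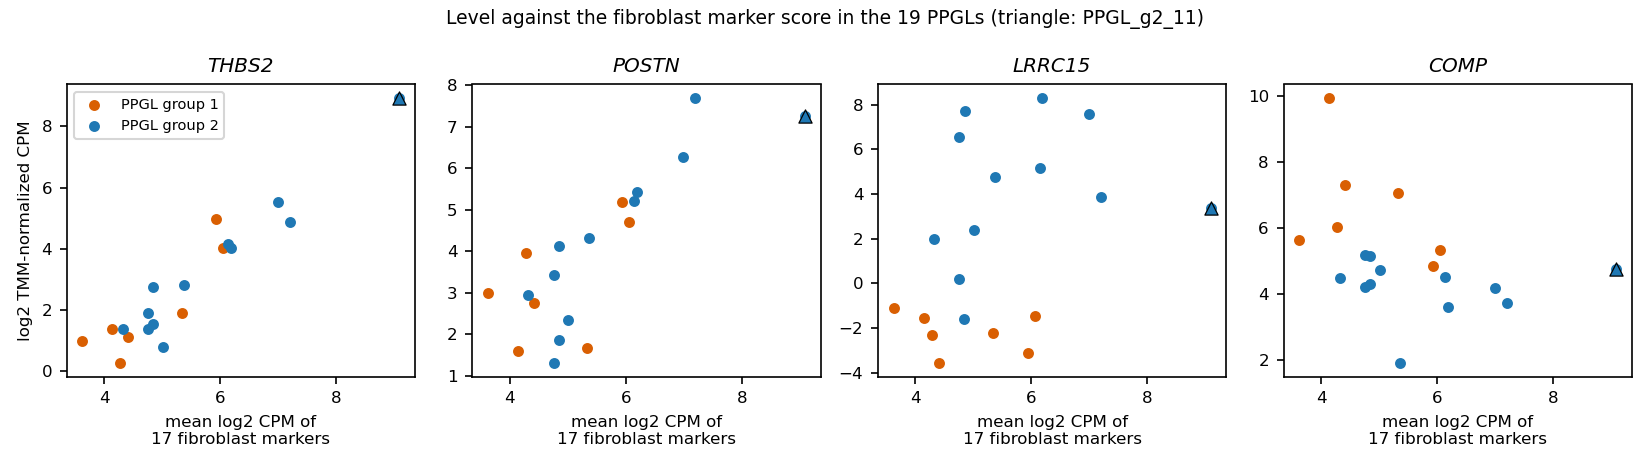
Log2 TMM-normalized CPM of THBS2, POSTN, LRRC15 and COMP (vertical axes) against the mean log2 CPM of 17 fibroblast markers (horizontal axes) in the PPGLs of group 1 (7) and group 2 (12), 1 point per tumor, colored by group, with PPGL_g2_11 as a triangle. In group 2, THBS2 and POSTN are higher where the score is higher (rho = 0.846 and 0.867), and rho is 0.350 for LRRC15 and -0.273 for COMP.

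The relations of the 10 genes with each other, 45 pairs in each of 3 groups, were added after the data had been seen and adjusted over all 135. Within PPGL group 2, 10 of 45 pairs had an adjusted permutation p of rho below 0.05, all of them positive. Among all pairs of the genes tested, 0.291% had a rho at least as high as the lowest of these, and again nothing is read from the count. SFRP2 with THBS2 (rho = 0.944, permutation p = 2e-05, adjusted p = 0.0027), FN1 with POSTN (rho = 0.923, permutation p = 5e-05, adjusted p = 0.00337) and FAP with THBS2 (rho = 0.909, permutation p = 0.00015, adjusted p = 0.00675) were closest by rho. Their r was 0.945 (permutation p = 2e-05), 0.846 (permutation p = 6e-05) and 0.968 (permutation p = 2e-05), and without the 2 tumors farthest from the median rho was 0.903, 0.879 and 0.842 (r = 0.871, 0.881 and 0.912). Some further pairs passed by r alone. No pair with LRRC15, COMP or TNC passed by rho or by r, and the median rho with the other 9 genes was 0.266 for LRRC15, -0.357 for COMP and 0.224 for TNC. In NAMs the median rho over the 45 pairs was 0.0303 and in group 1 it was 0.357, and no pair passed the adjusted threshold in either, by rho or by r.

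The genes most like each of the 10 were found by Spearman's rho over the 19 PPGLs, after the mean of its PPGL group had been taken from each value, among 12749 named genes. POSTN was closest to COL1A1 (rho = 0.900), FN1 (0.895) and LTBP2 (0.884), and FN1 to POSTN (0.895), LTBP2 (0.875) and COL1A1 (0.856). FAP was closest to LUM (0.868), THBS2 (0.867) and COL1A2 (0.867), and SPARC to CDC42EP5 (0.923), COL1A2 (0.867) and JDP2 (0.863). THBS2 was closest to MXRA5 (0.951), MMP11 (0.916) and KCNMB1 (0.902), and SFRP2 to CPXM2 (0.902), PRELP (0.893) and SERTAD4 (0.888). ACTA2 was closest to TAGLN (0.963), PDLIM2 (0.932) and TPM2 (0.925). The nearest genes of LRRC15 were XKR9 (0.786), NPY5R (0.724) and SERPINB8 (0.714), those of COMP were HSPB1 (0.809), NUP37 (0.733) and LRRC28 (0.723), and those of TNC were CLN8 (0.816), ARPC5L (0.805) and CRLF3 (0.797). None of these 9 genes was on the lists of fibroblast genes, and neither were the nearest genes named for SFRP2 and ACTA2.

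Markers of other cell types are given for comparison, beside 22.3% higher and 15.2% lower in PPGLs, and 3.97% and 2.95% in group 1 against group 2, among all genes tested. Leukocyte markers gave 3 genes higher, CD2, CD3E and CD8A, and 1 lower, CSF1R, of 8 tested in PPGLs, with 1 and 3 by the Mann-Whitney U-test, and 0 in either direction between the groups, where 2 were lower at an unadjusted p below 0.05, DESeq2 called 1 and the Mann-Whitney U-test 0. CD8A, with at most 3 counts in 3 of 10 NAMs, stayed called in 6 of 29 fits that left out 1 sample. It was not called without NAM1 (1.60), NAM2 (1.66), NAM3 (1.49), NAM4 (1.58), NAM6 (1.61), NAM8 (1.60), NAM9 (1.53) or NAM10 (1.63), and did not pass the filter on low counts without NAM7, PPGL_g1_1, PPGL_g1_2, PPGL_g1_3, PPGL_g1_4, PPGL_g1_5, PPGL_g1_7, PPGL_g2_4, PPGL_g2_5, PPGL_g2_6, PPGL_g2_7, PPGL_g2_8, PPGL_g2_9, PPGL_g2_10 or PPGL_g2_11. CSF1R was not called without NAM2 (-0.65). The number lower in PPGLs was 0 without NAM2 and 2 without PPGL_g2_11. Their sum had a median of 243 CPM in NAMs, 160.5 CPM in group 1 and 125 CPM in group 2, CD163 was the most abundant, and MS4A1 had at most 3 counts in every NAM. Of 8 endothelial markers 4 fell in PPGLs and 0 rose by any test, with TEK (log2 FC -1.14), KDR (-1.09) and TIE1 (-0.75) the largest changes, of which TIE1 was not called without NAM10 (-0.61). Between the groups edgeR, DESeq2 and the Mann-Whitney U-test called 0, 1 was lower at an unadjusted p below 0.05, and 1 was called lower without PPGL_g1_6. PECAM1 was the most abundant, with median sums of 660.3, 405 and 401 CPM. The adrenal capsule markers NR2F2 (log2 FC -1.10) and TCF21 (-1.71) fell in PPGLs, 2 of 4 tested. Without NAM9 1 was called, and TCF21 (-1.52) was not. TCF21 was also lower in group 1 (-3.25). Without PPGL_g2_11 it had -2.48 in PPGLs and -2.44 in group 1. Their sum had a median of 37.8 CPM in NAMs, 18.1 in group 1 and 23.0 in group 2, NR2F2 was the most abundant, and WT1 had at most 3 counts in every NAM.

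Of 10 chromaffin markers, PHOX2A and SYP rose and PNMT fell in PPGLs, and 0 were called between the groups by the QL test, where 2 were higher and 1 lower at an unadjusted p below 0.05, DESeq2 called 1 in each direction and the Mann-Whitney U-test 0. In PPGLs 2 were lower without PPGL_g1_2, PPGL_g1_3 or PPGL_g2_11, and between the groups 1 was lower without PPGL_g1_6. Schwann and sustentacular markers gave 0 calls of 6 by the QL test in either comparison, though 2 were lower in PPGLs at an unadjusted p below 0.05 and DESeq2 and the Mann-Whitney U-test called 2 and 3 lower, as the QL test called 2 without PPGL_g1_4 or PPGL_g2_5. Between the groups 0 had an unadjusted p below 0.05 and the other tools called 0. Their sum had a median of 107 CPM in NAMs, 32.3 in group 1 and 30.5 in group 2, and CDH19 was the most abundant. Adipocyte markers gave 0 calls of 3 by the QL test, with 1 higher in PPGLs at an unadjusted p below 0.05 and by DESeq2, and median sums of 3.97, 3.68 and 3.81 CPM. FABP4, the most abundant over all samples, had medians of only 0.485, 0.523 and 0.495 CPM and reached 30.1 CPM in group 2. The QL test called 1 adipocyte marker higher without PPGL_g1_3 or PPGL_g1_7, and between the groups 0 had an unadjusted p below 0.05 and DESeq2 and the Mann-Whitney U-test called 0. Mitosis genes rose in PPGLs in 13 of 14 tested and were higher in group 1 in 10 of 14, in 2 of 14 without PPGL_g1_7 and in 1 of 14 by the Mann-Whitney U-test. Their sum had a median of 53.9 CPM in NAMs, 247 CPM in group 1 and 125 CPM in group 2, and TOP2A was the most abundant. The part of these cell types in the levels of the 10 genes was not tested.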

How the data were processed

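RNA was prepared from NAM and PPGL tissue with a stranded mRNA kit (TruSeq Stranded) and sequenced as single ends of 50 bp. Alignment was to CanFam3.1 by STAR 2.4.2a, and the authors deposited the raw count of reads per Ensembl gene, summed over exons. FastQC, Picard and HTSeq are also named in the submitters' processing notes. The strand setting of the counting and the handling of reads that match several genes are not given in the sources used here, so overlapping genes and close paralogs are uncertain.

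Counts were filtered with edgeR's filterByExpr (minimum count 10, minimum total 15) and normalized by TMM, and groups were compared with edgeR's quasi-likelihood F test with Benjamini-Hochberg adjustment over all genes tested, at 0.05 for PPGLs against NAMs and 0.1 between the PPGL groups. The log2 FC used a prior count of 0.125 and log2 CPM a prior count of 2. Samples were grouped by their labels. The alternatives were DESeq2's size factors, library size, DESeq2's Wald test, the Mann-Whitney U-test, no filter, a filter of 1 CPM, other prior counts, the sample number as a replicate block, all 3 groups in the fit, and each sample left out in turn. The 10 genes, the gene lists and the rule for named genes were chosen with earlier results of these data known. Lists were written by hand from general knowledge, and TWIST1, ADIPOQ, CYP11B2, MATN1, BGLAP, CCNB1, LMOD1 and ACTG2 were not found by name. Named are the 10 genes, TGFB1, TGFB2, TGFB3, ITGAV, the called genes of largest absolute log2 FC (at most 3 for each list in each direction), the 3 genes most like each of the 10, and the most abundant marker of each cell type. The most abundant marker was taken over all samples and need not lead in every group. Markers near 0 were named after their values had been seen. Relations between pairs of the 10 genes, levels without a library, and the shares of all genes with as high a rho were added after the data had been seen. Within-group correlations used 100000 permutations, whose smallest possible p is 1e-05, or all orders for 7 samples, whose smallest possible p is larger. The steps were tested on simulated data. Tests were run with edgeR 4.0.16, DESeq2 1.42.0 and limma 3.58.1 in R 4.3.3, and correlations and plots with scipy 1.17.1, numpy 2.4.6 and matplotlib 3.10.9 in Python 3.11.15. The 2 tumors left out by the authors, the immunohistochemistry and the clinical data were not analysed here.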

Additional observations from a re-analysis of the deposited data

Results flagged for a closer look

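The levels of LRRC15 and COMP were not the same in both PPGL groups. Group 1 against group 2 gave a log2 FC of -8.67 for LRRC15, whose levels in group 1 were within or below the range of NAMs and in group 2 mostly above them. For COMP it gave 3.32, and 1.89 without PPGL_g1_1, which was above every NAM. All 12 tumors of group 2 and 4 of 7 tumors of group 1 were below every NAM, with medians of 243 CPM in NAMs, 65.8 in group 1 and 21.2 in group 2. These values describe these samples, since the genes were chosen with results of the same samples known. A check of each of the 10 genes in NAMs and in PPGL group 1 for a single sample far from the others on the log2 scale, 20 checks in all, found 0. PPGL group 2, which holds PPGL_g2_11, was not part of this check, which covers groups of at most 10 samples.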

How the results depend on the processing

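Of 1783 alternative values, 0 turned the sign of a called result, and for named genes outside the 10, 70 lost a call and 3 gained one. From the fits that left out 1 sample, these values take only the lowest and the highest of each result. Calls lost in the other such fits, listed above for named genes, are not counted there. For PPGLs against NAMs, DESeq2's Wald test called 1 of the 10 genes lower, beside 17.2% of all genes, and gave -2.47 for COMP and 1.203 for THBS2. The Mann-Whitney U-test called 3 higher and 1 lower, beside 19.1% and 19.8% of all genes. With each sample left out in turn, COMP ranged from -2.54 (without PPGL_g1_1) to -1.25, and the number called lower from 0 to 1. Between the groups, DESeq2's Wald test called 916 genes higher and 877 lower in place of 582 and 433, called 2 of the 10 lower and gave -0.0370 for FN1. The Mann-Whitney U-test called 160 genes higher and 226 lower. All 3 groups in the fit gave 1405 and 1162, and 4 of the 10 lower. With each tumor left out, genes called higher ranged from 256 (without PPGL_g1_7; 369 without PPGL_g2_4) to 733 and lower from 269 (without PPGL_g1_7) to 485, COMP from 1.89 (without PPGL_g1_1) to 3.53, FN1 from -1.59 to -0.0514 and THBS2 from -3.46 to -0.57, both highest without PPGL_g2_11. The cause of these shifts was not tested.

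The sample numbers do not pair the samples, since 0 of 7, 2 of 10 and 0 of 7 same-numbered pairs deviated together with r over 0.1. With the number as a replicate block, 4 of the 10 genes were called higher and 1 lower in PPGLs, beside 15.4% and 16.1% of all genes in that fit, with -2.72 for COMP and 0.67 for THBS2. Between the groups the replicate block left 10 genes called higher and 37 lower, 0 and 0 of the 10, and gave -0.15 for POSTN, 2.03 for COMP, 0.30 for FN1 and -0.72 for THBS2. Only samples whose number occurs in both groups inform that fit. For POSTN, SFRP2, FAP, LRRC15, CCN5, GREM1 and CD8A, levels of a few counts in NAMs or in group 1 limit the precision of the fold change.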
